A study of Homo sapiens with 16 samples.

Results

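Clone C1 of the human myeloma cell line KMS27 was compared with the parental KMS27 cells. The comparison rests on 4 of the 16 RNA libraries of the study, 2 of C1 and 2 of the parental cells, chosen by the population named in the labels. KMS27 carries the translocation t(11;14) and its parental cells are sensitive to venetoclax, a drug that blocks the survival protein BCL2. Per the labels, single cells that outlived a high dose of venetoclax were grown into clones, and these were kept in 100 nM of the drug. All populations grew in RPMI-1640 medium with serum, antibiotics and glutamine. No drug dose is given for the parental cells. C1 is 1 clone, so the drug in its medium, the selection and the descent from a single cell cannot be told apart in its difference from the parental population. The labels do not say that the 2 libraries of a population came from separate cultures, so p-values measure the spread between libraries, which may be technical.

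Venetoclax fills the groove of BCL2 that otherwise holds death activators such as BIM, the product of BCL2L11. Cells can outlive it when related guardians, MCL1 or BCL-XL (the product of BCL2L1), hold those activators instead. Myeloma cells are malignant plasma cells, which make immunoglobulin in bulk and rely on the chaperones of the endoplasmic reticulum and on the unfolded protein response that maintains them. Plasma cells normally keep the genes of MHC class II silent, since the plasma cell factor BLIMP-1 (PRDM1) represses CIITA, the coactivator of these genes.

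Levels are given as CPM, the count of a gene relative to the total of its library after TMM scaling, and are not divided by the length of the gene. A log2 fold change (log2FC) is C1 minus parental, given ± its standard error, and a gene was called where the adjusted p of edgeR's quasi-likelihood test was under 0.05. The parental libraries held 26653196 and 26632039 counts and those of C1 52615971 and 27435782. Defining plasma cell and myeloma genes were present, 10 of 10, at a summed 9126 to 12369 CPM in the 4 libraries. Markers of other blood and stromal cells were few. Of 16 T and natural killer cell genes 5 could be tested, at a summed 194 to 211 CPM, nearly all from the myeloma antigen NCAM1 and from TRBC2, and CD3E had 0.508 and 0.663 CPM in the parental libraries and 0.953 and 1.46 CPM in C1. Of 13 myeloid genes 2 could be tested, CD68 with 0.0725 and 0.468 CPM in the parental libraries and 0.477 and 0.423 CPM in C1 and ITGAM with 0.0363 and 0.0780 CPM in the parental libraries and 0.298 and 0.423 CPM in C1. Of 12 stromal and endothelial genes 1 (PECAM1) and of 11 erythroid and platelet genes 0 could be tested.

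Of 14088 genes tested, 1620 (11.5%) were called higher in C1 and 1429 (10.1%) lower, 21.6% in either direction. After this scaling the median log2FC over all genes was -0.011. At least 2-fold changes made up 464 of the rises and 637 of the falls, and at least 8-fold changes 73 and 101. Leaving out 1 of the 4 libraries, which leaves 1 library alone in its population and assumes that it varies like the others, gave fewer calls. Without C1 replicate 1 there were 504 higher and 352 lower, and without C1 replicate 2 there were 909 and 650. When parental replicate 1 was left out there were 585 and 462, and when parental replicate 2 was left out, 724 and 727. Counts without 1 library are given below in this order. The spread was estimated over all 8 KMS27 libraries, which include clones B5 and C5, and the B5 libraries differed most from each other. Without B5 replicate 1 the calls were 2651 higher and 2492 lower, and without B5 replicate 2 they were 2552 and 2545.

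**Figure D1:**
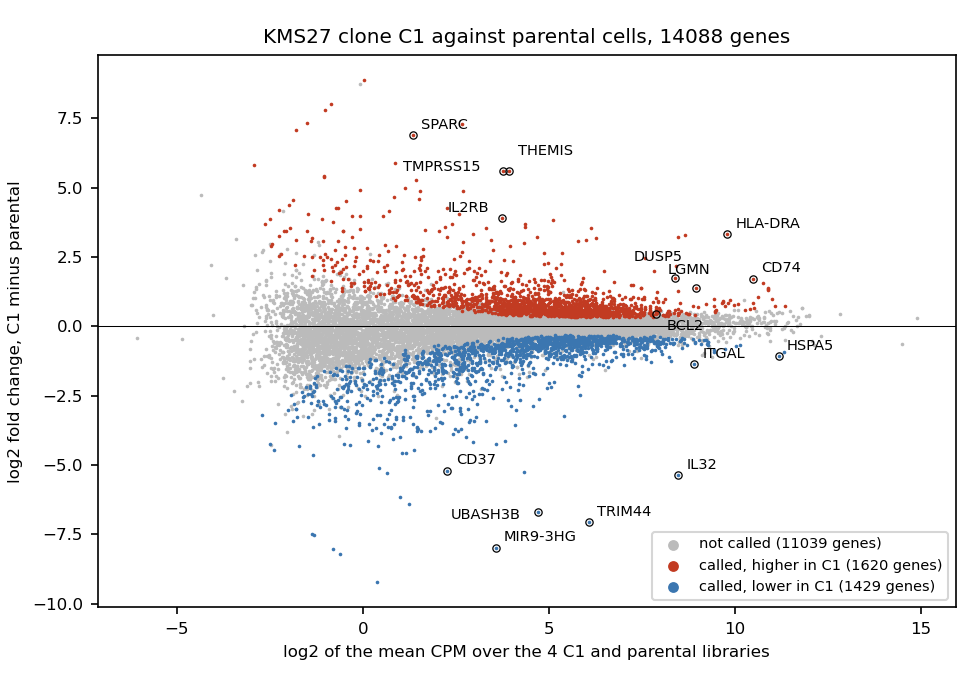
Each point is 1 of 14088 genes, with the log2 of its mean CPM over the 4 C1 and parental libraries on the x axis and the log2 fold change of C1 minus parental on the y axis. Red and blue points are the 1620 genes called higher and the 1429 called lower in C1, and HLA-DRA, TMPRSS15, TRIM44 and other labelled genes lie far from 0.

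BCL2, the target of the drug, was moderately higher in C1. It had 198 and 199 CPM in the parental libraries and 271 and 277 CPM in C1 (log2FC 0.46 ± 0.11, adjusted p = 0.0167). Both C1 libraries lay above both parental libraries, and the libraries of a population differed little. The call was lost without any 1 of these 4 libraries, at adjusted p from 0.0841 to 0.124. BCL2L1, which encodes BCL-XL, had 16.8 and 18.4 CPM in the parental libraries and 26.0 and 28.3 CPM in C1 (log2FC 0.62 ± 0.18, adjusted p = 0.0366), again with the C1 libraries above the parental ones and with the call lost without any 1 of the 4 libraries (adjusted p from 0.0954 to 0.188). MCL1, another guardian, was not called (515 and 506 CPM in the parental libraries and 600.0 and 623 CPM in C1, log2FC 0.26 ± 0.12, adjusted p = 0.1405), and neither was BCL2L2 (log2FC -0.11 ± 0.13, adjusted p = 0.574).

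The word activator is used here for every BH3-only gene, with no claim on how it acts. Among the activators and effectors of the death pathway, BCL2L11 stood out. This BH3-only activator had 12.7 and 12.9 CPM in the parental libraries and 30.3 and 22.9 CPM in C1 (log2FC 1.06 ± 0.14, adjusted p = 0.00161), a rise that kept its call under every alternative run. Here and below that means every alternative that tested the gene and gave it an adjusted p. BAK1, a pore-forming effector, was called higher (21.2 and 25.7 CPM in the parental libraries and 35.6 and 31.5 CPM in C1, log2FC 0.52 ± 0.15, adjusted p = 0.0366) and the activator BMF lower (254 and 254 CPM in the parental libraries and 196 and 204 CPM in C1, log2FC -0.34 ± 0.11, adjusted p = 0.0469). Each call was lost without any 1 of the 4 libraries. For BAK1 the values were adjusted p from 0.0573 to 0.233, and for BMF they were adjusted p from 0.137 to 0.241 and 0.0509 with no filter on low counts. Not called were BAX, the other effector (log2FC -0.34 ± 0.11, adjusted p = 0.0529), and the activators PMAIP1 (log2FC -0.14 ± 0.10, adjusted p = 0.332) and BBC3 (log2FC -0.32 ± 0.17, adjusted p = 0.217). In all, 2 of 4 guardians tested and 2 of 9 activators and effectors were higher, 0 and 1 were lower, at median log2FC of 0.36 and -0.14, against 11.5% and 10.1% of all genes and a median of -0.011.

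The largest rises among abundant genes, those with a mean of at least 3 log2 CPM, were in TMPRSS15, THEMIS and IL2RB. TMPRSS15 encodes enteropeptidase, a protease of the gut lining, and lies at chr21:18269116-18485884 (GRCh38). It had 0.363 and 0.741 CPM in the parental libraries and 28.0 and 25.6 CPM in C1 (log2FC 5.60 ± 0.27, adjusted p = 1.31e-05). THEMIS, a T cell receptor signalling protein at chr6:127696628-127918595, had 0.725 and 0.507 CPM in the parental libraries and 34.4 and 25.5 CPM in C1 (log2FC 5.59 ± 0.26, adjusted p = 1.31e-05). Both genes were near absent from the parental libraries and well measured in both libraries of C1. The tested gene next to THEMIS, PTPRK, a receptor phosphatase, was also higher (log2FC 4.67 ± 0.61, adjusted p = 0.00130), while the nearest on the other side, ECHDC1, was not called (log2FC -0.10 ± 0.12, adjusted p = 0.581). IL2RB, the beta chain of the receptors for IL-2 and IL-15, had 1.96 and 1.37 CPM in the parental libraries and 22.7 and 27.0 CPM in C1 (log2FC 3.89 ± 0.21, adjusted p = 1.45e-05). CCR7, the receptor that guides lymphocytes into lymph nodes, had 3.30 and 3.04 CPM in the parental libraries and 46.5 and 29.7 CPM in C1 (log2FC 3.59 ± 0.23, adjusted p = 3.57e-05). In both genes the C1 libraries were far above the parental ones. PRCAT47, a long noncoding RNA, had 2.72 and 3.12 CPM in the parental libraries and 41.5 and 33.9 CPM in C1 (log2FC 3.69 ± 0.19, adjusted p = 1.45e-05). SLC9A7, a cation and proton exchanger of the Golgi coded on chromosome X, had 1.60 and 1.52 CPM in the parental libraries and 19.6 and 16.6 CPM in C1 (log2FC 3.53 ± 0.17, adjusted p = 1.31e-05). ARHGEF3, an activator of the small GTPase RhoA, had 4.42 and 5.62 CPM in the parental libraries and 45.2 and 47.7 CPM in C1 (log2FC 3.21 ± 0.17, adjusted p = 1.45e-05). The other 5 of the 12 largest rises were MHC class II genes. All 12 kept their call under every alternative run.

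Some genes of lower mean level, chosen after their values were seen, rose as steeply. SLC2A5, the fructose transporter, had 0.0363 and 0.117 CPM in the parental libraries and 14.9 and 10.2 CPM in C1 (log2FC 7.31 ± 0.38, adjusted p = 1.45e-05). SEMA4D, a membrane-bound semaphorin, had 0.326 and 0.507 CPM in the parental libraries and 10.9 and 14.1 CPM in C1 (log2FC 4.89 ± 0.33, adjusted p = 4.58e-05). TNFRSF1B, the type II receptor of tumour necrosis factor, had 0.979 and 0.897 CPM in the parental libraries and 10.7 and 6.72 CPM in C1 (log2FC 3.22 ± 0.31, adjusted p = 0.000267). Each of these 3 was barely measured in the parental cells and well above that in both C1 libraries.

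The deepest falls among the same abundant genes were in MIR9-3HG, TRIM44 and UBASH3B. TRIM44, a member of the tripartite motif family at chr11:35662775-35818007, had 135 and 132 CPM in the parental libraries and 1.03 and 0.960 CPM in C1 (log2FC -7.05 ± 0.17, adjusted p = 1.30e-07), a mean 134 times lower. The 2 libraries of each population were almost equal. Of the 3 tested genes on either side of TRIM44, PDHX and APIP were called lower by far less (log2FC -0.45 ± 0.13, adjusted p = 0.0421, and log2FC -0.45 ± 0.14, adjusted p = 0.0445), and CAT, COMMD9, TRAF6 and RAG1 were not called. Without any 1 of the 4 libraries both lost the call, PDHX at adjusted p from 0.0874 to 0.244 and APIP at adjusted p from 0.122 to 0.218. UBASH3B, a phosphatase that dampens receptor signalling, lies on the other arm of chromosome 11 (chr11:122655722-122814473) and had 53.8 and 50.5 CPM in the parental libraries and 0.636 and 0.269 CPM in C1 (log2FC -6.71 ± 0.33, adjusted p = 1.31e-05). None of the 6 tested genes nearest to it was called. IL32, a cytokine, was among the more abundant genes of the parental cells and had 624 and 769 CPM in the parental libraries and 22.8 and 10.8 CPM in C1 (log2FC -5.36 ± 0.37, adjusted p = 4.66e-05). Its C1 libraries differed from each other, and both were far below the parental ones. SPNS3, a transporter-like membrane protein, had 39.2 and 38.7 CPM in the parental libraries and 0.854 and 1.23 CPM in C1 (log2FC -5.26 ± 0.21, adjusted p = 5.19e-06). FBLN2, a protein of the extracellular matrix, had 74.3 and 77.5 CPM in the parental libraries and 8.14 and 7.91 CPM in C1 (log2FC -3.24 ± 0.13, adjusted p = 5.19e-06). The scavenger receptor CD163L1 (log2FC -4.24 ± 0.30, adjusted p = 6.20e-05), the protease meprin beta (MEP1B, log2FC -4.14 ± 0.24, adjusted p = 2.59e-05), the neuronal enolase ENO2 (log2FC -3.40 ± 0.27, adjusted p = 0.000109), the linker histone H1F0 (log2FC -3.01 ± 0.26, adjusted p = 0.000146) and JMJD8 (log2FC -3.28 ± 0.46, adjusted p = 0.00179) make up the rest of the 12, with GVINP1 (log2FC -3.56 ± 0.23, adjusted p = 3.44e-05), a pseudogene whose reads can be split with its near-identical relatives. All 12 kept their call under every alternative run. Around the 12 largest falls 6 of the 72 nearest tested genes were called higher and 4 lower, against 11.5% and 10.1% of all genes. Around the 12 largest rises 40 of 72 were higher and 4 lower, some of them counted for more than 1 gene. Most of the 40 lie around the 5 rises that sit together in the MHC and are in part neighbours of each other.

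MIR9-3HG is the host transcript of a gene for the microRNA miR-9 and lies at chr15:89361579-89398488. It had 22.9 and 24.4 CPM in the parental libraries and 0.139 and 0 CPM in C1 (log2FC -7.97 ± 0.42, adjusted p = 1.45e-05), with 7 counts in the deeper C1 library and 0 in the other. The hairpin lies inside the transcript at chr15:89368017-89368106. The mature sequence is shown because it is what the transcript carries. It is the same for all 3 human miR-9 loci in RefSeq (GRCh38.p14), and poly-A libraries do not measure the mature form. Capitals mark the seed, bases 2 to 8.
hsa-miR-9-5p: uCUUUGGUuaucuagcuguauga

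**Figure D2:**
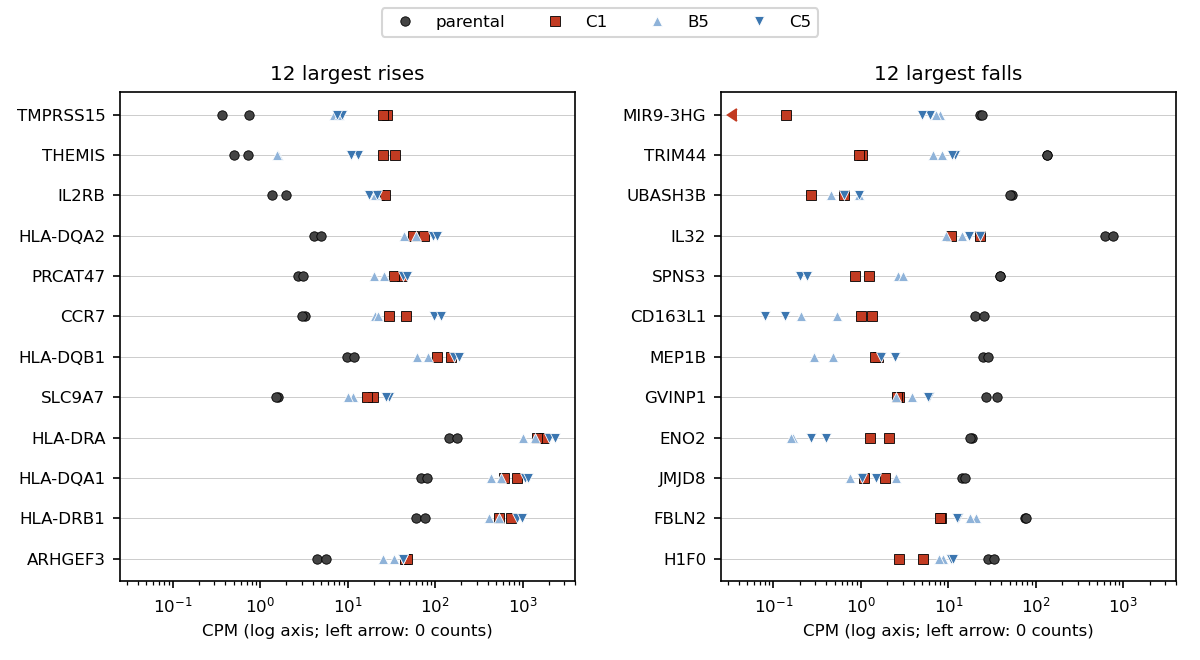
CPM on a log axis in every KMS27 library for the 12 genes with the largest rise (left) and the 12 with the largest fall (right) in C1 against parental among called genes with a mean of at least 3 log2 CPM, with the 2 libraries of each population as points and a left arrow for 0 counts. C1 and parental points never meet, and in TMPRSS15, THEMIS, TRIM44 and MIR9-3HG the points of clones B5 and C5 lie between them.

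MHC class II presentation was the group that moved most as a body. These genes encode the chains that show peptides to CD4 T cells and the machinery that loads them. Of 20 tested, 15 were higher and 0 lower in C1, at a median log2FC of 2.62 against -0.011 over all genes, where 11.5% were higher. The count was 14 or 15 without any 1 of the 4 libraries and the median 2.40 to 2.84. HLA-DRA, the less variable chain of the HLA-DR pair, had 143 and 177 CPM in the parental libraries and 1745 and 1463 CPM in C1 (log2FC 3.33 ± 0.22, adjusted p = 4.02e-05), a mean 10.0 times higher. HLA-DPB1 had 15.0 and 16.0 CPM in the parental libraries and 158 and 121 CPM in C1 (log2FC 3.17 ± 0.19, adjusted p = 2.63e-05). Its partner HLA-DPA1 had 57.2 and 60.1 CPM in the parental libraries and 357 and 295 CPM in C1 (log2FC 2.48 ± 0.18, adjusted p = 6.20e-05). The libraries did not overlap in any of the 3. HLA-DRB1 (log2FC 3.23 ± 0.22, adjusted p = 4.58e-05) and HLA-DRB5 (log2FC 3.12 ± 0.19, adjusted p = 3.10e-05), HLA-DQA1 (log2FC 3.29 ± 0.21, adjusted p = 3.40e-05) and HLA-DQA2 (log2FC 3.82 ± 0.21, adjusted p = 2.06e-05), and HLA-DQB1 (log2FC 3.56 ± 0.22, adjusted p = 3.32e-05) and HLA-DQB2 (log2FC 4.05 ± 0.31, adjusted p = 8.22e-05) all rose, but each pair is near-identical, so the split of reads within it is uncertain.

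Genes of the loading machinery rose as well. CD74, the invariant chain that guards the peptide groove, had 641 and 697 CPM in the parental libraries and 2412 and 1990.5 CPM in C1 (log2FC 1.72 ± 0.18, adjusted p = 0.000482). HLA-DMA, a subunit of the peptide exchange factor, had 12.6 and 15.3 CPM in the parental libraries and 69.7 and 64.0 CPM in C1 (log2FC 2.26 ± 0.18, adjusted p = 0.000100). The other subunit HLA-DMB (log2FC 2.77 ± 0.20, adjusted p = 7.67e-05) and the modulators HLA-DOA (log2FC 2.44 ± 0.27, adjusted p = 0.000585) and HLA-DOB (log2FC 2.79 ± 0.30, adjusted p = 0.000520) rose too. CIITA, the coactivator of the group, had 21.0 and 15.6 CPM in the parental libraries and 57.9 and 42.1 CPM in C1 (log2FC 1.45 ± 0.30, adjusted p = 0.0107). Both C1 libraries exceeded both parental libraries in CIITA, although its call was lost at adjusted p = 0.104 without C1 replicate 1 and 0.0645 without parental replicate 2. The 5 genes that were not called are RFX5 (log2FC 0.38 ± 0.13, adjusted p = 0.0607), RFXANK (log2FC 0.21 ± 0.16, adjusted p = 0.381) and RFXAP (log2FC 0.14 ± 0.17, adjusted p = 0.587), the subunits of the factor that binds class II promoters, and 2 genes of the endosome, CTSS (log2FC 0.15 ± 0.13, adjusted p = 0.462) and IFI30 (log2FC 0.37 ± 0.14, adjusted p = 0.0872). PRDM1, which represses CIITA in plasma cells, was not called (275 and 261 CPM in the parental libraries and 300.5 and 329 CPM in C1, log2FC 0.23 ± 0.11, adjusted p = 0.163).

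Class II promoters share a Y box, which the factor NF-Y binds beside the RFX site. The letters CTGATTGG were searched on both strands from 250 bases before to 50 after the transcription start. They occur in 7 of the 17 class II promoters in the RefSeq table (GRCh38.p14) and in 1136 of all 27305 promoters (4.16%). HLA-DRA, CIITA and CTSS are not in the table. Of the 7, 6 belong to genes that rose (HLA-DRB1, HLA-DRB5, HLA-DQA2, HLA-DQB1, HLA-DQB2 and HLA-DMA) and the other is RFX5. In the 6 the match runs in the direction of the gene, 49 to 93 bases before the start. HLA-DPA1, HLA-DPB1, HLA-DQA1, HLA-DMB, HLA-DOA, HLA-DOB and CD74 are in the table and rose without a match. As 15 of the 20 list genes rose, nothing is read from the 6, which also include near-identical pairs. The last 130 bases before the start are shown for 3 of the 6, with the match in capitals, to show where it stands in genes that rose. They lie on the minus strand at chr6:32589849-32589978 for HLA-DRB1, chr6:32666658-32666787 for HLA-DQB1 and chr6:32953098-32953227 for HLA-DMA, and a match describes letters, not binding.
HLA-DRB1: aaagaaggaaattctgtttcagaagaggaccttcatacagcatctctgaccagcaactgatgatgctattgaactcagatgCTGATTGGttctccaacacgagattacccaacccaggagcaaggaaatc
HLA-DQB1: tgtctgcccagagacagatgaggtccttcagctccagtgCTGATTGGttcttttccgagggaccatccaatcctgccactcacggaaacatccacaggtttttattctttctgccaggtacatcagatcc
HLA-DMA: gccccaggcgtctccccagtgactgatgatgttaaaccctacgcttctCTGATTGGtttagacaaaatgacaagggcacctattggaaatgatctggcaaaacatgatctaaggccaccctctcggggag

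MHC class I presentation, which all nucleated cells use, had a median near 0. Of 21 tested genes 5 were higher and 2 lower (33.3% called, against 21.6% of all genes), at a median log2FC of 0.12. The peptide pump TAP1 had 44.2 and 55.3 CPM in the parental libraries and 103 and 89.4 CPM in C1 (log2FC 0.95 ± 0.17, adjusted p = 0.00491), with both C1 libraries above both parental ones, and its call was lost at adjusted p = 0.0605 without C1 replicate 1. B2M, the shared light chain, was not called (log2FC -0.040 ± 0.17, adjusted p = 0.885). Also higher were HLA-B, TAP2 and TAPBP, which like TAP1 lie in the MHC on chromosome 6, and the lower ones were ERAP1 and ERAP2, which trim peptides. Without 1 of the 4 libraries in turn 0, 2, 1 and 2 of the group were higher and 0, 1, 0 and 1 lower.

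Interferon-stimulated genes leaned the other way. Of 28 tested, 8 were lower and 3 higher, at a median log2FC of -0.43, where 10.1% of all genes were lower. SAMD9L, an inhibitor of growth and translation, had 197 and 178 CPM in the parental libraries and 59.7 and 83.4 CPM in C1 (log2FC -1.39 ± 0.21, adjusted p = 0.00286). GBP5, an interferon-induced GTPase, had 26.4 and 26.6 CPM in the parental libraries and 11.8 and 13.6 CPM in C1 (log2FC -1.07 ± 0.12, adjusted p = 0.000693). The pro-apoptotic XAF1 had 2.21 and 2.18 CPM in the parental libraries and 0.536 and 0.230 CPM in C1 (log2FC -2.42 ± 0.42, adjusted p = 0.00483). C1 lay below the parental libraries in all 3. The chemokine CXCL10, on the other hand, rose from a very low level, with 0.145 and 0.390 CPM in the parental libraries and 2.22 and 1.57 CPM in C1 (log2FC 2.84 ± 0.44, adjusted p = 0.00301). Without 1 of the 4 libraries in turn 5, 5, 3 and 5 were lower and 1, 3, 1 and 3 higher.

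Protein folding in the endoplasmic reticulum was the other group that moved as a body, and its genes, with those of the unfolded protein response, were lower in C1. Of 32 tested, 19 were lower and 1 higher, at a median log2FC of -0.55, against 10.1% lower over all genes. HSPA5, the main chaperone of the compartment (BiP), had 2973 and 3263 CPM in the parental libraries and 1426 and 1566 CPM in C1 (log2FC -1.06 ± 0.15, adjusted p = 0.00181), a mean 2.08 times lower. SYVN1, a ubiquitin ligase for misfolded proteins, had 222 and 206 CPM in the parental libraries and 95.9 and 99.1 CPM in C1 (log2FC -1.14 ± 0.12, adjusted p = 0.000392). The disulfide isomerase PDIA4 had 870.5 and 923 CPM in the parental libraries and 454 and 533 CPM in C1 (log2FC -0.86 ± 0.13, adjusted p = 0.00270). ERO1B, the oxidase that recharges such enzymes, had 98.5 and 94.7 CPM in the parental libraries and 46.6 and 52.5 CPM in C1 (log2FC -0.96 ± 0.14, adjusted p = 0.00259). SEC24D, a coat protein of vesicles that leave the compartment, had 220.2 and 222 CPM in the parental libraries and 119.6 and 125 CPM in C1 (log2FC -0.85 ± 0.10, adjusted p = 0.000967). In all 5 both C1 libraries lay below both parental libraries, and these 5 kept their call under every alternative run.

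Less firm were the falls of HSP90B1 (log2FC -0.93 ± 0.17, adjusted p = 0.00590), HYOU1 (log2FC -0.82 ± 0.14, adjusted p = 0.00483), EDEM1 (log2FC -0.92 ± 0.15, adjusted p = 0.00411), HERPUD1 (log2FC -0.66 ± 0.12, adjusted p = 0.00654) and CRELD2 (log2FC -0.61 ± 0.14, adjusted p = 0.0176), further chaperones and degradation factors. The calls of HSP90B1, HYOU1 and EDEM1 were lost without C1 replicate 1 alone, at adjusted p of 0.0771, 0.0684 and 0.0588. HERPUD1 was lost at adjusted p = 0.0753 without C1 replicate 1 and 0.0598 without parental replicate 2, and CRELD2 at adjusted p = 0.156 without C1 replicate 1 and 0.0570 without parental replicate 1 and 0.108 without parental replicate 2. XBP1, a factor of the response (log2FC -0.15 ± 0.17, adjusted p = 0.549), and its activating sensor ERN1 (log2FC -0.22 ± 0.20, adjusted p = 0.462) were not called, and neither were the lectin chaperones CALR (log2FC -0.50 ± 0.18, adjusted p = 0.0770) and CANX (log2FC -0.14 ± 0.17, adjusted p = 0.579). The sensor ATF6 was the 1 gene called higher (log2FC 0.48 ± 0.11, adjusted p = 0.0176, lost at adjusted p from 0.0741 to 0.156). The count of lower genes was 6 without C1 replicate 1, 16 without C1 replicate 2, 12 with parental replicate 1 left out and 9 with parental replicate 2 left out, with medians between -0.67 and -0.42. Leaving out the genes on chromosomes 4, 11 and X, whose genes shifted together, 15 of 27 were lower and 1 higher, at a median of -0.50.

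The promoters of several of these genes hold the endoplasmic reticulum stress element, where NF-Y and ATF6 or XBP1 bind. The letters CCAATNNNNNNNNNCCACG, searched on both strands as above, occur in 22 of 27305 promoters (0.0806%) and in 7 of the 30 promoters of the list in the table, those of HSPA5, HSP90B1, CRELD2, CALR, CANX, XBP1 and ERO1B. Of these 7 genes 4 fell and 3 were not called. A second form, ATTGGNCCACG, occurs in 15 promoters (0.0549%) and in 3 of the list, SDF2L1, HERPUD1 and HYOU1. All 3 were called lower, SDF2L1 (log2FC -0.53 ± 0.15, adjusted p = 0.0357) only with all 4 libraries (adjusted p from 0.0665 to 0.247 without 1). Over the whole list 19 of 32 tested genes were called lower, so falls were also common in genes without a match. Nothing is read from the calls of the genes with a match. PDIA3, ERN2 and SEC24D are not in the table. The 130 bases before the start are shown for 3 genes that fell, with the match in capitals. They lie at chr9:125241344-125241473 (minus strand) for HSPA5, chr22:49918504-49918633 (plus strand) for CRELD2, where the match runs on the opposite strand, and chr16:56932012-56932141 (plus strand) for HERPUD1.
HSPA5: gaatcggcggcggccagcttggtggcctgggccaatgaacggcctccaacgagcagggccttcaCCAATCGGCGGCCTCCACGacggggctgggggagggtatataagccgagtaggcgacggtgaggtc
CRELD2: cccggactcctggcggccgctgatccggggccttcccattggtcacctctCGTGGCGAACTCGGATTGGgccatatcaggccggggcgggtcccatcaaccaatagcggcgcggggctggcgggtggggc
HERPUD1: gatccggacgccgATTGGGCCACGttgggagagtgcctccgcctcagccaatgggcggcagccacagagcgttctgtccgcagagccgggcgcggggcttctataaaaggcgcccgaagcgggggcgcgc

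The list of plasma cell genes held 4 falls and 1 rise among 19 tested (26.3% called, against 21.6% of all genes), at a median of -0.15. MZB1, a chaperone of immunoglobulin assembly, had 266 and 273 CPM in the parental libraries and 108 and 133 CPM in C1 (log2FC -1.17 ± 0.13, adjusted p = 0.000626). TXNDC11, a thioredoxin-like partner of oxidative folding, had 395 and 416 CPM in the parental libraries and 173 and 206 CPM in C1 (log2FC -1.10 ± 0.13, adjusted p = 0.000913). FKBP11, a prolyl isomerase of the compartment, had 136 and 145 CPM in the parental libraries and 67.0 and 83.0 CPM in C1 (log2FC -0.91 ± 0.13, adjusted p = 0.00181). Both C1 libraries were below both parental libraries in each. IRF4, which plasma cells need to survive, was not called (1825 and 1770.4 CPM in the parental libraries and 1552 and 1966 CPM in C1, log2FC -0.032 ± 0.16, adjusted p = 0.905). SDC1, the surface proteoglycan CD138, was called higher (353 and 381 CPM in the parental libraries and 496 and 498 CPM in C1, log2FC 0.44 ± 0.11, adjusted p = 0.0266, lost at adjusted p from 0.0946 to 0.211). The remaining fall of the list was DERL3 (log2FC -0.53 ± 0.13, adjusted p = 0.0198). Its call was lost without C1 replicate 1, parental replicate 1 or parental replicate 2. Not called among the genes of the list that serve secretion were SEC11C (log2FC -0.55 ± 0.18, adjusted p = 0.0546), SSR4 (log2FC 0.14 ± 0.19, adjusted p = 0.630) and TXNDC5 (log2FC 0.010 ± 0.17, adjusted p = 0.971). Without 1 of the 4 libraries in turn 3, 5, 3 and 3 of the list were lower. Together the immunoglobulin genes and JCHAIN made up 4.58% and 5.02% of all counts in the parental libraries and 2.69% and 3.41% in C1, and JCHAIN itself was not called (log2FC -0.35 ± 0.26, adjusted p = 0.358).

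B cell genes, which plasma cells largely turn off, moved apart from each other. CD37, a tetraspanin of mature B cells, had 9.21 and 9.56 CPM in the parental libraries and 0.238 and 0.269 CPM in C1 (log2FC -5.20 ± 0.31, adjusted p = 2.63e-05). BLK, a kinase of the Src family, had 13.6 and 12.8 CPM in the parental libraries and 0.993 and 1.46 CPM in C1 (log2FC -3.45 ± 0.27, adjusted p = 0.000100). Against this, BTK, the kinase downstream of the B cell receptor and coded on chromosome X, had 14.2 and 15.3 CPM in the parental libraries and 49.3 and 53.1 CPM in C1 (log2FC 1.80 ± 0.11, adjusted p = 2.82e-05). The tetraspanin CD53 had 12.6 and 14.2 CPM in the parental libraries and 41.5 and 43.1 CPM in C1 (log2FC 1.66 ± 0.16, adjusted p = 0.000255). The transcription factor SPIB had 5.404 and 7.10 CPM in the parental libraries and 22.6 and 22.4 CPM in C1 (log2FC 1.85 ± 0.18, adjusted p = 0.000334). The populations did not overlap in any of these 5, and all 5 kept their call under every alternative run. Over the list 4 of 15 were higher and 2 lower (40% called, against 21.6% of all genes), with a median of 0.66. The median is that of a spread list, from -5.20 to 1.85, and it was 0.23 without C1 replicate 1 and 0.33 without parental replicate 2. Of 20 B and plasma cell transcription factors 4 were higher and 3 lower (35% called), and without 1 of the 4 libraries in turn 3, 2, 3 and 2 and 2, 3, 3 and 3. ID3, an inhibitor of E proteins, fell (15.2 and 17.7 CPM in the parental libraries and 4.21 and 5.65 CPM in C1, log2FC -1.75 ± 0.20, adjusted p = 0.000739), as did KLF2, a factor of quiescence and homing (15.3 and 15.4 CPM in the parental libraries and 1.91 and 3.92 CPM in C1, log2FC -2.43 ± 0.32, adjusted p = 0.00142). MYC had 113 and 115 CPM in the parental libraries and 113 and 98.8 CPM in C1 (log2FC -0.10 ± 0.11, adjusted p = 0.527) and CCND1, the cyclin driven by t(11;14), 1084 and 1024 CPM in the parental libraries and 1101 and 1208 CPM in C1 (log2FC 0.13 ± 0.14, adjusted p = 0.529), and neither was called.

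Most targets of myeloma antibodies and cell therapies were not called. Of 13 tested, 3 were higher and 2 lower (38.5% called, against 21.6% of all genes), and without 1 of the 4 libraries in turn 0, 1, 0 and 0 were higher and 1, 1, 2 and 1 lower. CD38 had 106 and 111 CPM in the parental libraries and 79.0 and 97.9 CPM in C1 (log2FC -0.30 ± 0.12, adjusted p = 0.117). TNFRSF17, which encodes BCMA, had 97.7 and 116 CPM in the parental libraries and 123 and 142 CPM in C1 (log2FC 0.31 ± 0.15, adjusted p = 0.171). SLAMF7 had 992 and 1142 CPM in the parental libraries and 823 and 794 CPM in C1 (log2FC -0.40 ± 0.14, adjusted p = 0.0679). None of the 3 was called, which does not show that they were equal. CD38 was at 79.9 and 74.9 CPM in B5 and 2.36 and 2.71 CPM in C5, so that C5 alone was far lower, and C1 overlapped with B5 and exceeded the mean of both (difference 2.66 ± 0.11, adjusted p = 1.30e-05). LY9, a relative of SLAMF7, fell, with 4.68 and 5.42 CPM in the parental libraries and 0.298 and 0.538 CPM in C1 (log2FC -3.65 ± 0.39, adjusted p = 0.000482). The cereblon gene CRBN (log2FC 0.060 ± 0.13, adjusted p = 0.774), through which lenalidomide acts, and its substrates IKZF1 (log2FC 0.26 ± 0.12, adjusted p = 0.138) and IKZF3 (log2FC -0.20 ± 0.30, adjusted p = 0.674) were not called.

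Receptor and signalling genes went both ways. While IL2RB rose, IL6R, the receptor of the myeloma growth factor IL-6, fell (11.1 and 12.01 CPM in the parental libraries and 1.59 and 2.46 CPM in C1, log2FC -2.54 ± 0.30, adjusted p = 0.000728). STAT5B, which IL-2 type receptors activate, was higher (21.4 and 23.9 CPM in the parental libraries and 38.1 and 34.99 CPM in C1, log2FC 0.69 ± 0.11, adjusted p = 0.00356). Over 26 interleukin receptor and JAK-STAT genes 7 were higher and 2 lower (34.6% called, against 21.6% of all genes), at a median of 0.059, and without 1 of the 4 libraries in turn 2, 3, 3 and 2 were higher and 1, 2, 1 and 2 lower. Among 11 chemokines and receptors 4 were higher and 2 lower (54.5% called), and without 1 library in turn 4, 4, 4 and 4 higher and 1, 3, 1 and 2 lower. CCL3 had 19.2 and 20.8 CPM in the parental libraries and 82.0 and 45.9 CPM in C1 (log2FC 1.68 ± 0.28, adjusted p = 0.00410), although it has near-identical relatives. CCL5 had 3.45 and 5.30 CPM in the parental libraries and 14.6 and 11.6 CPM in C1 (log2FC 1.59 ± 0.25, adjusted p = 0.00313), whereas the receptor CCR2 had 8.85 and 11.3 CPM in the parental libraries and 1.13 and 3.07 CPM in C1 (log2FC -2.31 ± 0.39, adjusted p = 0.00428). CCL3 and CCL5 are chemokines that draw T cells and monocytes, and CCR2 is a receptor that monocytes use, and in none of the 3 did the populations overlap. Of 28 genes of the NF-kB pathway 8 were higher and 2 lower (35.7% called, where 11.5% of all genes were higher and 10.1% lower), and without 1 library in turn 2, 6, 2 and 3 higher and 0, 0, 0 and 0 lower. The NF-kB list had a median log2FC of -0.00017, with 14 of 28 values above 0. At an unadjusted p under 0.05 by edgeR 9 of its genes were higher and 6 lower. NFKBIE, an inhibitor of NF-kB, had 19.1 and 20.1 CPM in the parental libraries and 41.5 and 32.6 CPM in C1 (log2FC 0.92 ± 0.14, adjusted p = 0.00281).

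MAPK feedback genes, which report on signalling through ERK, also went both ways. DUSP5, a phosphatase that inactivates ERK, had 149 and 163 CPM in the parental libraries and 590.5 and 450.5 CPM in C1 (log2FC 1.74 ± 0.16, adjusted p = 0.000215). DUSP6, which acts on ERK as well, had 1.85 and 2.81 CPM in the parental libraries and 7.82 and 8.37 CPM in C1 (log2FC 1.80 ± 0.23, adjusted p = 0.00107). DUSP10, which acts on other MAP kinases, had 7.47 and 7.29 CPM in the parental libraries and 19.3 and 14.7 CPM in C1 (log2FC 1.21 ± 0.16, adjusted p = 0.00149). In all 3 both C1 libraries were above both parental libraries. DUSP4 had 41.8 and 45.2 CPM in the parental libraries and 21.9 and 19.8 CPM in C1 (log2FC -1.06 ± 0.11, adjusted p = 0.000414). The early response factor EGR1 had 10.9 and 7.22 CPM in the parental libraries and 2.26 and 2.73 CPM in C1 (log2FC -1.87 ± 0.27, adjusted p = 0.00236). In both C1 lay below. Of 24 such genes 7 were higher and 2 lower (37.5% called, against 21.6% of all genes), at a median of 0.13, and without any 1 of the 4 libraries 5 or 6 were higher and 2 lower.

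Lists of proliferation and metabolism had medians closer to 0 than the folding genes. Of 40 DNA replication genes 8 were higher and 4 lower (median 0.17), and of 37 genes of mitosis 5 were higher and 2 lower (median 0.067), against 11.5% and 10.1% of all genes. Without 1 of the 4 libraries in turn 1, 5, 2 and 1 replication genes were higher and 0, 0, 1 and 0 lower, and 1, 1, 0 and 2 mitosis genes higher and 0, 0, 0 and 0 lower. POLA1, the polymerase that primes DNA synthesis, coded on chromosome X, was higher (96.8 and 96.5 CPM in the parental libraries and 155 and 179 CPM in C1, log2FC 0.79 ± 0.12, adjusted p = 0.00239). Of 22 glycolysis genes 5 were higher and 1 lower, at a median of 0.30. PFKFB3, which makes the activator of phosphofructokinase, had 2.94 and 2.89 CPM in the parental libraries and 7.88 and 6.22 CPM in C1 (log2FC 1.28 ± 0.19, adjusted p = 0.00224), and the lower gene was ENO2. Without 1 of the 4 libraries in turn 1, 3, 1 and 2 glycolysis genes were higher. Cytosolic ribosomal protein genes had a median of 0.18, with 68 of 82 values above 0, but 5 were called higher and 1 lower, and without 1 of the 4 libraries in turn 0, 0, 0 and 3 higher and 0, 0, 0 and 0 lower. Of the 5, RPS4X, RPL39, RPL10 and RPL36A are coded on chromosome X. The parental libraries differed from each other in these genes, which took 8.99% and 11.0% of their counts, against 11.1% and 11.5% in C1. Its median was 0.021 with parental replicate 1 left out and 0.37 with parental replicate 2 left out, and the part of that difference between libraries in the result was not tested. Of 36 proteasome genes 1 was higher and 1 lower, of 39 genes of oxidative phosphorylation 2 and 0, and of 17 genes of the MYC network 0 and 0 by edgeR and by DESeq2, with 1 higher and 1 lower at an unadjusted p under 0.05 by either tool.

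**Figure D3:**
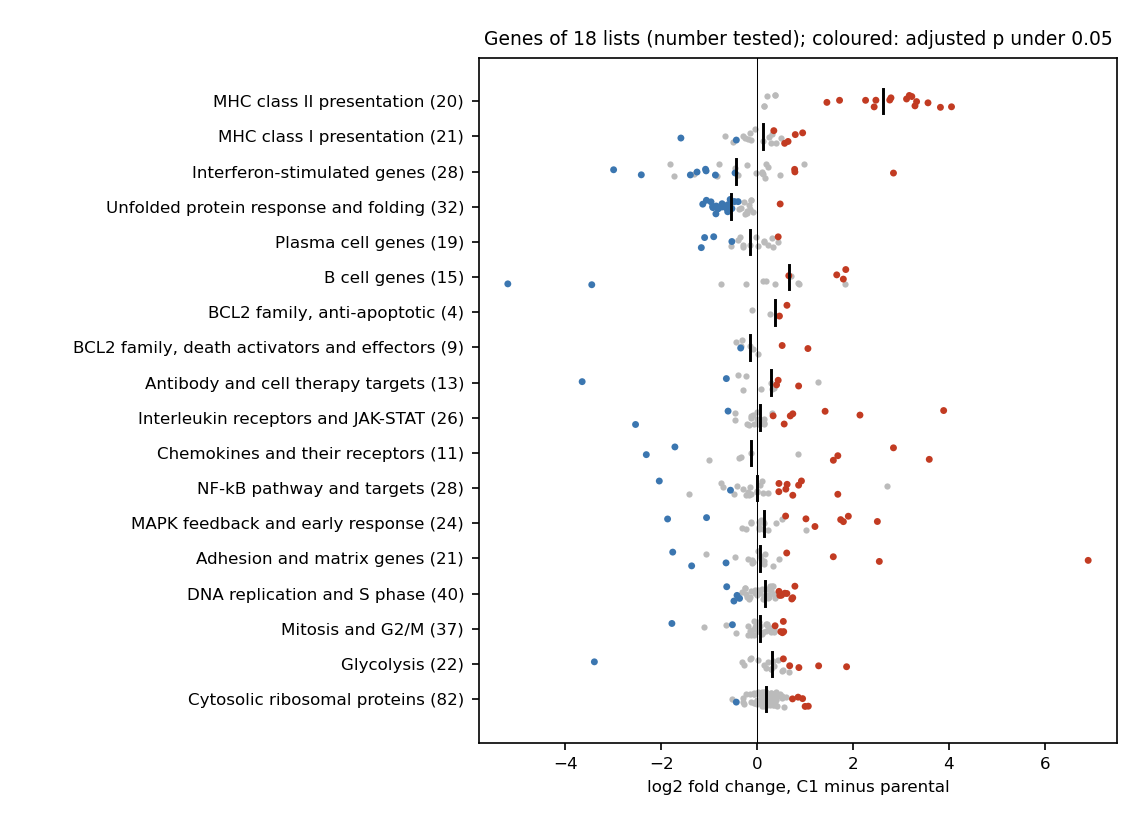
Log2 fold change of C1 minus parental (x axis) for the tested genes of 18 lists, 1 point a gene, red where called higher, blue where called lower and grey where not called, with a black bar at the median. Class II genes form a cloud to the right around a median of 2.62, the unfolded protein response lies left of 0 at -0.55, and lists such as B cell genes and chemokines spread to both sides.

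Some genes were near 0 on 1 side. In 63 genes the 2 parental libraries together held 0 to 3 counts and those of C1 more than 3. In 30 genes it was the reverse, with exactly 0 in 13 and 6 of them. The 2 numbers cannot be weighed against each other. The deposited table holds only genes that reach 5 counts in 4 or more libraries. It can thus hold genes on in all 3 clones and off in the parental cells, but not those on in the parental cells alone. C1 replicate 1 also held far more counts (52615971) than either parental library. Intervals and floors here cover counting error only. SPARC, a secreted matrix protein, had 1 and 1 counts in the parental libraries and 235 and 141 in C1, a ratio of 131 (95% exact interval 36.0 to 1085). LCP2, the adaptor SLP-76 of T cell receptor signalling, had 3 counts against 288 (66.9, 22.7 to 326), and TNIP3, an inhibitor of NF-kB, 3 against 135 (31.3, 10.5 to 154). FCRL4, an Fc receptor-like protein of memory B cells, had 0 counts in the parental libraries and 161 in C1, at least 37.4-fold higher against a floor of 3 counts over the parental libraries. These 4 genes were called. IKBKGP1, a pseudogene that shares sequence with IKBKG, went from 0 to 135 counts (at least 31.3-fold) and was not called (adjusted p = 0.101). It had 0 counts in 1 library and 72 in the other of B5, and 0 and 37 in those of C5, and its reads may be split with IKBKG. In the other direction PCDHB5, a protocadherin of a cluster with close relatives, had 140 counts in the parental libraries and 0 in C1, at least 67.0-fold lower. ECHDC2, a mitochondrial enzyme of the hydratase family, had 61 against 0 (at least 29.2-fold lower), and ITIH4, a plasma inhibitor, 43 against 0 (at least 20.6-fold lower). CCDC168 had 41 against 2, a ratio of 29.4 (7.64 to 251). These 4 were called, CCDC168 not without C1 replicate 1 (adjusted p = 0.0520), and DESeq2 gave no adjusted p for ITIH4 and CCDC168.

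Genes of 3 chromosomes shifted together. On chromosome X 242 of 452 tested genes were higher (53.5%) and 10 lower, at a median log2FC of 0.59. On chromosome 11 224 of 673 were lower (33.3%) and 17 higher, at a median of -0.35, and on chromosome 4 123 of 430 were lower (28.6%) and 18 higher, at -0.31. Over the 12513 genes placed on these and the other chromosomes 12.7% were higher and 10.6% lower, at a median of 0.014. In each the shift covered all windows tested. In windows of 20 Mb with at least 20 genes the medians were 0.38 to 0.72 in the 7 windows of X, -0.57 to -0.18 in the 7 of chromosome 11 and -0.47 to -0.19 in the 10 of chromosome 4, while the 128 windows elsewhere lay between -0.24 and 0.30. Among the other chromosomes the highest median was that of chromosome 20, at 0.23 with 77 of 328 genes higher. Chromosome 8 followed at 0.19 with 85 of 434 higher, and chromosome 6 at 0.14 with 134 of 637 higher. The lowest was that of chromosome 16, at -0.16 with 107 of 579 lower. Of the placed genes called higher 15.2% are on X, and of those called lower 26.1% are on 4 or 11. Most placed calls, 1312 higher and 970 lower, are on chromosomes other than 4, 11 and X, which also hold most of the placed genes. The copy number of these chromosomes was not analysed here, and its part in the result was not tested. Clones B5 and C5, compared with the same parental libraries, had medians of 0.56 and 0.54 on X, -0.59 and -0.38 on chromosome 11 and -0.32 and -0.30 on chromosome 4.

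**Figure D4:**
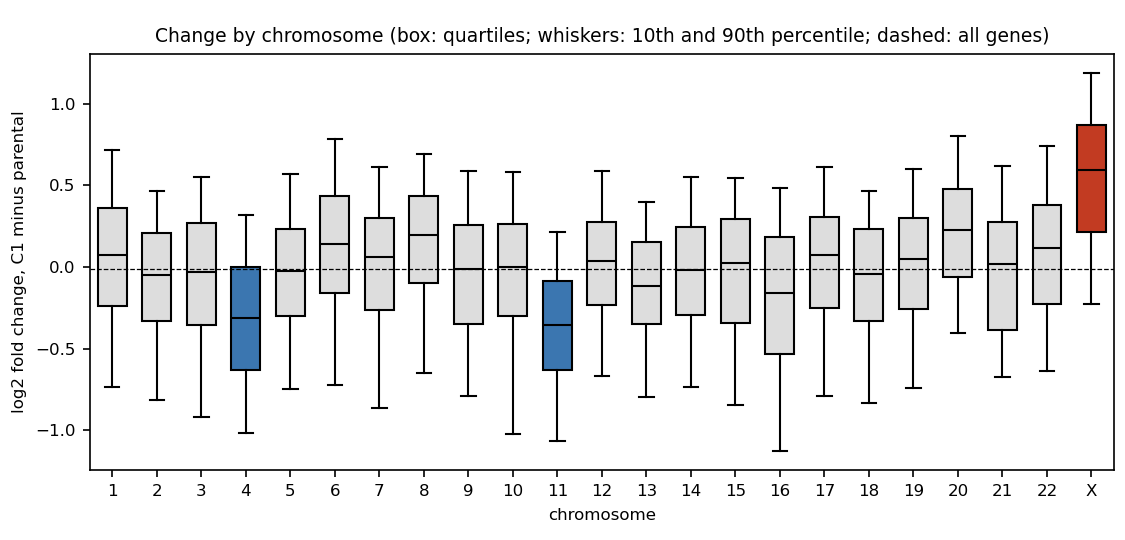
Log2 fold change of C1 minus parental (y axis) by chromosome (x axis), with boxes for the quartiles, a line for the median, whiskers from the 10th to the 90th percentile of genes and a dashed line at the median of all genes. Chromosome X (red) sits above the rest at a median of 0.59, and chromosomes 4 and 11 (blue) sit below it at -0.31 and -0.35.

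C1 was also set directly against the mean of clones B5 and C5, a contrast in which the parental libraries cancel. Of 14088 genes 775 (5.5%) were higher in C1 and 506 (3.59%) lower, 9.09% in either direction. Of the 3049 genes called against parental, 630 were also called here and 2419 were not, which does not show that those were equal. These counts rest on few libraries. Leaving out C1 replicate 1 gave 92 higher and 29 lower, and leaving out C1 replicate 2 gave 211 and 79. With B5 replicate 1 left out there were 1279 and 902, and with B5 replicate 2 left out 1980 and 1725. With C5 replicate 1 left out there were 219 and 118, and with C5 replicate 2 left out 236 and 101.

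KLHL4, a BTB-Kelch protein coded on chromosome X, showed the largest excess over the other clones among abundant genes called in both contrasts. It had 16.9 and 18.2 CPM in the parental libraries and 60.6 and 65.3 CPM in C1 (log2FC 1.84 ± 0.13, adjusted p = 4.58e-05), but 0.915 and 0.691 CPM in B5 and 4.04 and 3.91 CPM in C5, so C1 was the 1 population above the parental level (difference 5.12 ± 0.12, adjusted p = 1.35e-07). LGMN, a lysosomal protease, had 272 and 285 CPM in the parental libraries and 884 and 554 CPM in C1 (log2FC 1.37 ± 0.20, adjusted p = 0.00240) against 134 and 127 CPM in B5 and 222 and 256 CPM in C5 (difference 2.03 ± 0.17, adjusted p = 0.000476). HIC1, a transcriptional repressor, had 16.1 and 18.4 CPM in the parental libraries and 34.0 and 37.5 CPM in C1 (log2FC 1.05 ± 0.13, adjusted p = 0.000974) against 14.8 and 13.6 CPM in B5 and 6.23 and 5.95 CPM in C5 (difference 1.94 ± 0.11, adjusted p = 4.68e-05). In these 3 genes both C1 libraries were above every other KMS27 library. DUSP5 was likewise at 163 and 196 CPM in B5 and 138 and 149 CPM in C5 (difference 1.70 ± 0.13, adjusted p = 0.000363). THEMIS and TMPRSS15, risen in all 3 clones, were higher in C1 by 2.79 and 1.78 on the log2 scale. RPH3A, a synaptic vesicle protein, and CDON, a receptor of the hedgehog pathway, fell in C1 (log2FC -2.88 ± 0.19, adjusted p = 4.02e-05 and log2FC -1.21 ± 0.22, adjusted p = 0.00559). Both were still higher there than in the mean of the other clones (difference 2.14 ± 0.18, adjusted p = 0.000609, and difference 1.66 ± 0.20, adjusted p = 0.00241). The call of CDON against parental was lost at adjusted p = 0.0700 without C1 replicate 1.

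Lower in C1 than in the other clones were MIR9-3HG (difference -6.11 ± 0.42, adjusted p = 0.000164) and TRIM44 (difference -3.19 ± 0.15, adjusted p = 1.82e-05), where C1 held the least of all populations. HAS2, the hyaluronan synthase, had 10.1 and 8.62 CPM in the parental libraries and 4.25 and 6.34 CPM in C1 against 170.3 and 168 CPM in B5 and 9.20 and 8.94 CPM in C5 (difference -2.91 ± 0.17, adjusted p = 5.09e-05), so that B5 alone was high. TP63, a p53 relative, had 11.3 and 10.9 CPM in the parental libraries and 14.3 and 16.3 CPM in C1 against 109 and 109 CPM in B5 and 47.7 and 49.4 CPM in C5 (difference -2.25 ± 0.10, adjusted p = 1.62e-05). PTGER4, a prostaglandin receptor, had 0.979 and 0.780 CPM in the parental libraries and 5.10 and 4.88 CPM in C1 against 10.1 and 12.7 CPM in B5 and 29.4 and 31.0 CPM in C5 (difference -1.89 ± 0.15, adjusted p = 0.000444). PRSS2, a trypsinogen with near-identical relatives, had 93.7 and 114 CPM in the parental libraries and 35.9 and 44.4 CPM in C1 against 119 and 141 CPM in B5 and 102 and 115 CPM in C5 (difference -1.57 ± 0.14, adjusted p = 0.000819), and C1 was the 1 population below the parental level. The calls against parental of HAS2 were lost at adjusted p = 0.0876 without C1 replicate 1 and 0.0948 without parental replicate 1, and those of TP63 at adjusted p from 0.0503 to 0.113. Of the 20 class II genes 0 were called in either direction by edgeR and by DESeq2, and 2 were higher and 3 lower at an unadjusted p under 0.05. Of the 32 folding genes edgeR called 0, DESeq2 called 3 higher and 0 lower, and 7 were higher and 0 lower at an unadjusted p under 0.05 in edgeR. Some other lists did hold calls by edgeR, where 5.5% of all genes were higher and 3.59% lower. Of 19 plasma cell genes 6 were higher and 0 lower, and of 22 glycolysis genes 9 and 1. Of 37 mitosis genes 0 were higher and 8 lower, and of 40 replication genes 2 and 6. These lists were picked after their values were seen.

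**Figure D5:**
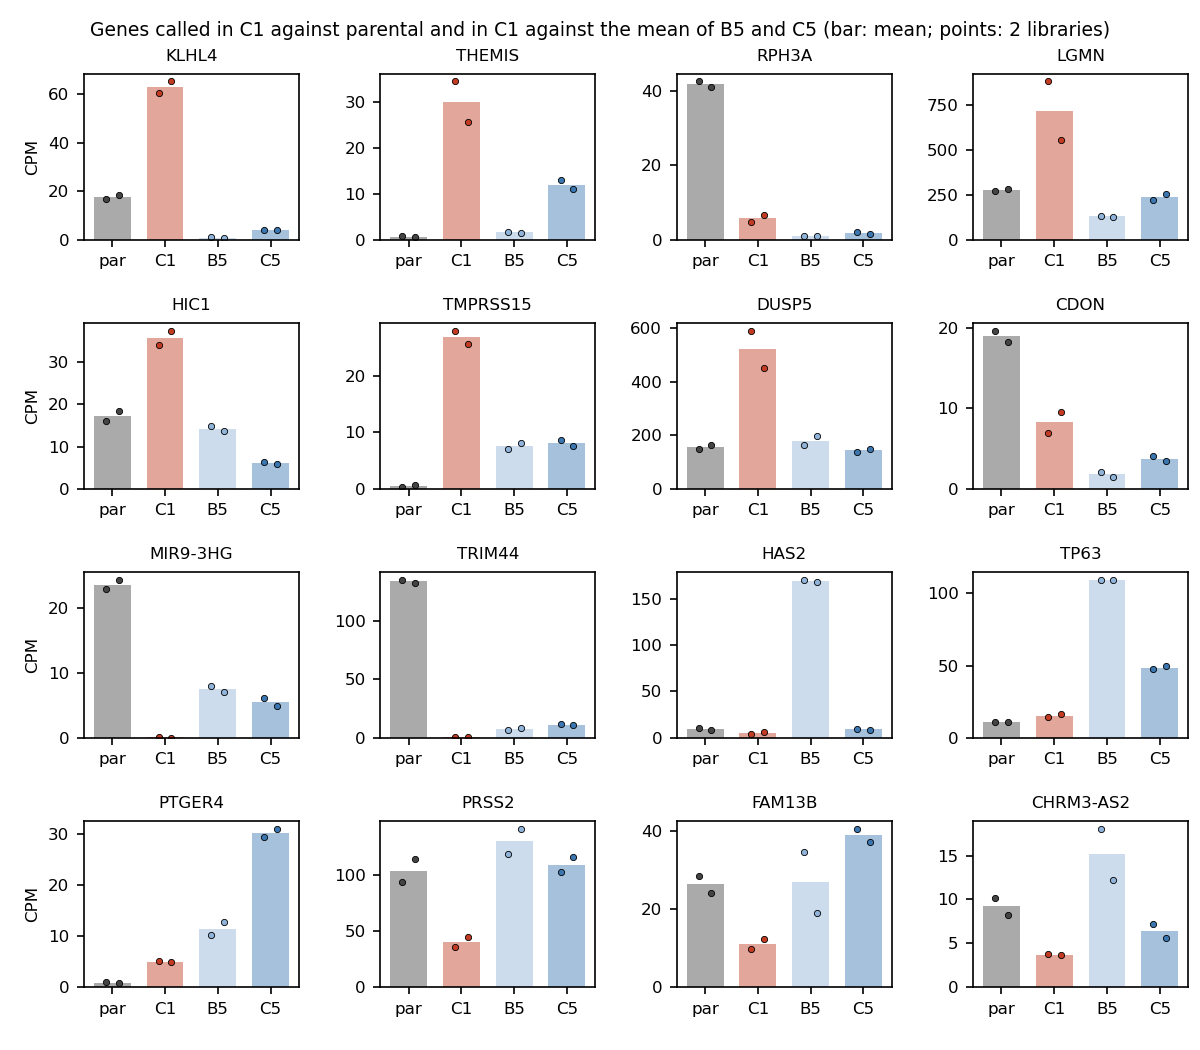
CPM (y axis, starting at 0) of the 16 genes with the largest differences between C1 and the mean of B5 and C5, 8 in each direction, among those called in that contrast and against parental with a mean of at least 3 log2 CPM over the 8 libraries, in the parental cells (par) and the 3 clones (x axis), with bars for the mean and points for the 2 libraries. KLHL4, LGMN, HIC1 and DUSP5 are highest in C1, MIR9-3HG and TRIM44 are lowest there, and HAS2 is high in B5 alone.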

How the data were processed

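RNA of 8 populations, the parental cells and 3 resistant clones of each of 2 myeloma lines, was measured with 2 libraries each, and the 8 KMS27 libraries were used here. Per the labels, 200 ng of RNA, taken with AllPrep, went into each poly-A library (Roche Kapa mRNA HyperPrep). The authors deposited counts per gene symbol, 1 column per library, as raw counts. Per the submitters' processing notes the build was hg38. The sources used here do not give the aligner, counter, annotation or strandedness, so reads of overlapping and antisense genes cannot be told apart. All 14560 genes of the table reach 5 counts in 4 or more libraries, so it lacks those that are off nearly everywhere. The totals ran from 20257318 to 52615971.

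The filter filterByExpr of edgeR 4.0.16 (R 4.3.3) kept 14088 genes and left out 472. After TMM scaling the quasi-likelihood fit gave each population its own mean and used all 8 libraries (4 residual degrees of freedom, biological coefficient of variation 14.3%). The 2-sided contrasts were C1 minus parental and C1 minus the mean of B5 and C5, with Benjamini-Hochberg adjustment over all genes. The fit was tested on simulated counts with known changes. In the parental libraries 3 counts equal 0.109 and 0.117 CPM, and in C1 0.0596 and 0.115. Libraries of 1 population were not duplicates.

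The comparison and the gene lists were chosen with earlier results of these data known, so lists are described by counts and medians without a test. By rule the text could name the 12 largest rises and 12 largest falls with a mean log2 CPM over the C1 and parental libraries of 3 or more, chosen genes of the BCL2 family, antigens and cereblon pathway, from each list the called genes with the 4 lowest adjusted p, the 8 largest differences from B5 and C5 in each direction, and up to 6 genes in each direction with 0 to 3 counts on 1 side. Other genes were named after their values were seen. Positions and promoters are from RefSeq (GRCh38.p14) and, where missing, GENCODE v29, and 12531 of the tested genes could be placed. Alternatives were another scaling (RLE), other filters on low counts, DESeq2 1.42.0, a replicate block, the 4 libraries alone, each library left out and, chosen after seeing the data, TMM factors from genes outside chromosomes 4, 11 and X, and B5 libraries left out.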

Additional observations from a re-analysis of the deposited data

Results flagged for a closer look

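Of 165 genes in the text that were tested, 44 changed in C1 by another amount than in the mean of B5 and C5. This was edgeR's test of the difference itself, C1 minus that mean (adjusted p under 0.05). A call can come largely from 1 of these clones, as in CD38, where C5 alone was far lower. The 165 do not count DERL3, which was not called in this contrast (adjusted p = 0.0919). C1 was higher in 21 and lower in 23. Over all genes 9.09% were called in this contrast. The genes of the text were in part chosen for the size of this same difference, so nothing is read from their share. The difference is given on the log2 scale.

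For 22 of them it was called under every alternative run that gave an adjusted p. Among receptors and surface antigens, CD38 differed by 2.66, SDC1 by 1.04, ITGB7 by 0.91 and PTGER4 by -1.89. Transcription factors and their regulators were MYC (0.80), HIC1 (1.94), TP63 (-2.25) and HDAC9 (2.21). Enzymes and proteases were ENO2 (2.87), LGMN (2.03), TMPRSS15 (1.78), PRSS2 (-1.57), HAS2 (-2.91) and PLA2G16 (7.52, with 0 counts in B5 and C5, so that the size depends on the prior count of the fit). MYC and CD38 were not called in C1 against parental, and both were higher in C1 than in the mean of the other clones. MYC was at 50.2 and 54.6 CPM in B5 and 69.6 and 73.2 CPM in C5. The others were KLHL4 (5.12), THEMIS (2.79), RPH3A (2.14), DUSP5 (1.70), CDON (1.66), FBLN2 (-0.96), TRIM44 (-3.19) and MIR9-3HG (-6.11).

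The other 22 lost the call without 1 library, with the adjusted p then reached in parentheses. Without C1 replicate 1 alone these were CD163L1 at 2.57 (adjusted p = 0.0906 without C1 replicate 1), FCRL4 at 2.39 (adjusted p = 0.107 without C1 replicate 1), CCL3 at 1.65 (adjusted p = 0.0769 without C1 replicate 1), GBP5 at -0.71 (adjusted p = 0.115 without C1 replicate 1) and LY9 at -2.58 (adjusted p = 0.0930 without C1 replicate 1). PMAIP1, a death activator, lost it without either C1 library, at -0.54 (0.0825 to 0.103). KLF2, at 1.22 (0.0909 to 0.240), lost it without C1 replicate 2 or either C5 library. PFKFB3, at -0.91 (0.0557 to 0.0904), and PECAM1, at -1.44 (0.0503 to 0.152), lost it without either C1 library or C5 replicate 2, and H1F0, at -1.31 (0.0537 to 0.0859), without C1 replicate 1 or either C5 library. The rest lost it without any 1 of the C1 and C5 libraries. Higher in C1 among them were PTPRK at 2.22 (0.0554 to 0.111) and PRDM1 at 0.39 (0.115 to 0.217). Lower were the interferon-linked XAF1 at -2.12 (0.0552 to 0.0860) and CXCL10 at -1.54 (0.0682 to 0.142), the signalling genes IL6R at -1.05 (0.0850 to 0.348), EGR1 at -1.38 (0.0551 to 0.175), DUSP4 at -0.55 (0.0537 to 0.105) and LCP2 at -0.98 (0.0990 to 0.193), and the integrin chain ITGAL at -0.51 (0.0669 to 0.201). In CCDC168 at -3.26 (0.0699 to 0.275), ITIH4 at -5.94 (0.0611 to 0.228) and ECHDC2 at -5.96 (0.0574 to 0.167), C1 was at or near 0, so the size depends on the prior count of the fit.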

How the results depend on the processing

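Scaling by RLE (1623 higher, 1424 lower), no filter on low counts (1617, 1399), only genes of at least 10 CPM (1139, 1079), DESeq2 (1712, 1524) and TMM factors from genes outside chromosomes 4, 11 and X (1530, 1476) left the counts of C1 against parental within 1.5 times of 1620 and 1429. The 4 libraries fitted alone gave 2376 higher and 2340 lower. Leaving out 1 library gave 352 to 2651, from 504 to 2651 higher and from 352 to 2545 lower, where fewer samples carry the fit. Against B5 and C5 it gave 92 to 1980 higher and 29 to 1725 lower. A fit with the replicate number as a block gave 1995 and 1925 calls against parental and 1187 and 839 against B5 and C5. Same-numbered libraries did not deviate together in every pair of populations, so the numbers were not taken as pairs. Over genes the deviations correlated at 0.631 (parental and B5), 0.231 (B5 and C5), 0.207 (parental and C5), 0.0897 (parental and C1), 0.0900 (C1 and B5) and 0.0559 (C1 and C5). Of 224 named genes 183 were called, 94 of them under every alternative that gave an adjusted p, 89 not without 1 library, and no named call reversed. With 2 libraries a side, small changes could not be detected. Copy number, protein and drug response were not analysed here.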

Other observations

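Of 21 adhesion and matrix genes 4 were higher and 3 lower (33.3% called, against 21.6% of all genes), and those not described above also went both ways. ITGAL, the alpha chain of the integrin LFA-1, had 704 and 669.7 CPM in the parental libraries and 266 and 267 CPM in C1 (log2FC -1.37 ± 0.12, adjusted p = 0.000177). ITGB7, the beta chain of an integrin of gut homing, had 29.4 and 29.4 CPM in the parental libraries and 78.9 and 97.9 CPM in C1 (log2FC 1.59 ± 0.14, adjusted p = 0.000175). ITGA8 had 88.2 and 86.2 CPM in the parental libraries and 19.4 and 32.3 CPM in C1 (log2FC -1.76 ± 0.25, adjusted p = 0.00194). Both C1 libraries were outside the parental ones in each, and all 3 kept their call under every alternative run. HDAC9, a class II histone deacetylase, was the 1 gene called among 25 chromatin regulators, with 0.725 and 0.702 CPM in the parental libraries and 6.67 and 10.4 CPM in C1 (log2FC 3.57 ± 0.32, adjusted p = 0.000177).

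Lipid genes held 2 falls and 2 rises among 18 tested (22.2% called, against 21.6% of all genes). PLA2G16, a phospholipase of chromosome 11, had 12.2 and 13.3 CPM in the parental libraries and 0.834 and 0.768 CPM in C1 (log2FC -3.97 ± 0.28, adjusted p = 0.000214), and 0 counts in all 4 libraries of B5 and C5. ELOVL6, an elongase of fatty acids coded on chromosome 4, had 24.6 and 25.4 CPM in the parental libraries and 13.2 and 11.9 CPM in C1 (log2FC -0.99 ± 0.15, adjusted p = 0.00240). ACSL4, which activates polyunsaturated fatty acids and is coded on chromosome X, had 105 and 103 CPM in the parental libraries and 158 and 159 CPM in C1 (log2FC 0.61 ± 0.10, adjusted p = 0.00439). These 3 kept their call under every alternative run. Of 22 p53 target genes 5 were higher and 0 lower, where 11.5% of all genes were higher and 10.1% lower, and without 1 library in turn (C1 replicate 1, C1 replicate 2, parental replicate 1, parental replicate 2) 1, 2, 1 and 3 were higher. CDKN1A, the cell cycle inhibitor p21, had 50.2 and 50.9 CPM in the parental libraries and 90.7 and 78.9 CPM in C1 (log2FC 0.75 ± 0.13, adjusted p = 0.00556) and was lost at adjusted p = 0.0671 without C1 replicate 1. Of 8 drug efflux pumps 0 were higher and 1 was lower by edgeR and by DESeq2, with 0 higher and 2 lower at an unadjusted p under 0.05.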
